A study of Gallus gallus with 10 samples.

Results

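The genes described here are 43 of the 24881 chicken genes in the table. They were chosen because they differed strongly among the libraries of ectopic tectum while they were even within the natural tissues. The samples came from wild-type chicken embryos. The 4 iTeO libraries were made from ectopic optic tectum that formed after human neuroepithelial cells (NECs) had been implanted into the anterior diencephalon, 2 with NECs from a line of human embryonic stem cells, iTeO (ES), and 2 with NECs from a line of human induced pluripotent stem cells, iTeO (iPS). Their replicates are called ES-rep1, ES-rep2, iPS-rep1 and iPS-rep2. The natural tissues gave 3 libraries of optic tectum (TeO) and 3 of cerebral cortex (NCC). The labels give neither the age of the embryos nor the number of embryos in a library, nor do they say whether replicates are separate embryos, so the tests below measure the spread between these samples. All groups carry the genotype label WT, only the iTeO samples are labelled as ectopic, and each kind of iTeO rests on a single human cell line.

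The optic tectum is the layered roof of the midbrain and receives the axons of the retina in birds. Its fate is set early in development by the isthmic organizer, a signalling centre at the border of midbrain and hindbrain, and tissue outside the midbrain can be turned towards tectum when such signals act on it.

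CPM values are counts of a gene per 1000000 counts on chicken genes of that library. A gene was a member when its highest iTeO value was at least 5 CPM, when this value was at least 5 times the lowest iTeO value after 0.5 CPM had been added to both, when the same ratio stayed under 3 within TeO and within NCC, and when the lowest iTeO value did not lie above all 6 natural libraries. Of 11209 genes that reached 5 CPM in an iTeO library, 75 passed the ratio of 5. The evenness within the natural tissues left out 26 of these and the last criterion left out 6 more. All values of CPM among the iTeO libraries were therefore used in the choice and are given as a description without a test.

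Between 7832388 and 10566585 reads were counted per iTeO library and between 10906465 and 11631102 per TeO or NCC library, so that 3 counts stood for 0.258 to 0.384 CPM. The genes are listed by Ensembl identifier. The table does not pair identifiers with names, and 0 of the 43 members matched the gene table used here. No function can thus be given for a member, and the labelled tissues could not be checked against their defining markers. In tissue samples, fewer cells of a type and less RNA per cell cannot be told apart.

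The members fell mainly into a block for each iTeO (ES) library. ES-rep1 was highest for 22 of the 43 members and ES-rep2 for 19, while each iTeO (iPS) library was highest for 1. The lowest value was spread more widely, with iPS-rep1 lowest for 16 members, ES-rep2 for 14, iPS-rep2 for 9 and ES-rep1 for 4. Both iTeO (ES) libraries lay above both iTeO (iPS) libraries for 17 members, and the opposite order held for 1. The rule used these values and the share over all genes was not taken, so nothing is read from this split.

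**Figure D1:**
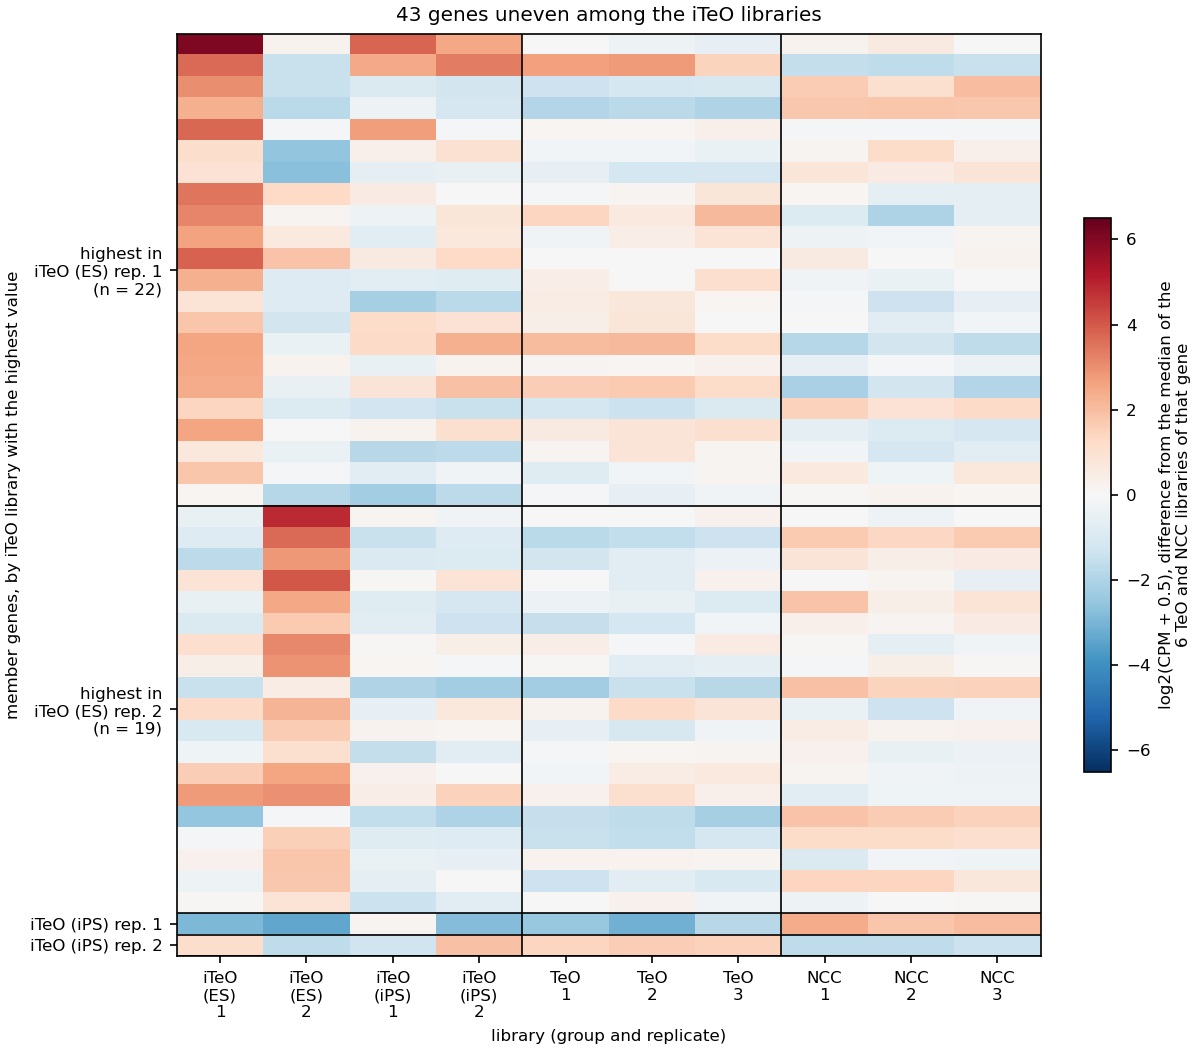
Each row is 1 of the 43 members and each column 1 of the 10 libraries, and the colour gives log2(CPM + 0.5) relative to the median of the 6 TeO and NCC libraries of that gene. Rows are grouped by the iTeO library with the highest value, so that 22 rows peak in ES-rep1, 19 in ES-rep2 and 1 in each iTeO (iPS) library.

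The ratio of the highest to the lowest iTeO value, with 0.5 CPM added to both, had a median of 8.18 and reached 57.6, and 17 members had a ratio of 10 or more. The highest iTeO value was between 5.31 and 517 CPM with a median of 13.2, and the lowest was between 0 and 91.0 CPM with a median of 1.18. In reads, the highest library held between 42 and 5443 counts and the lowest between 0 and 711, with a median of 10 counts in the lowest. The levels of many members in their lowest library were hence close to what this depth can resolve, and 4 members had at least 1 iTeO library without any count.

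A single high library was the more common pattern. For 25 members the highest iTeO library was at least 3 times the next one on the same offset scale, 13 of them in ES-rep1, 11 in ES-rep2 and 1 in iPS-rep1. A single low library, at least a ratio of 3 below the next one, was found for 6 members, and it was ES-rep2 in all 6. Only 1 gene had both patterns, and 13 members had neither. Some of these were graded over the libraries, and in others, such as ENSGALG00000016600, the libraries split into a high and a low pair.

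ENSGALG00000004320 had the largest ratio of all members and was the one with both patterns. It had 57.8 CPM in ES-rep1, 0.511 in ES-rep2, 11.1 in iPS-rep1 and 4.37 in iPS-rep2. Its values were 0.345, 0.184 and 0.0891 CPM in TeO replicates 1 to 3 and 0.517, 0.796 and 0.361 in NCC replicates 1 to 3. ES-rep2 thus stood at the level of the natural tissues for this gene, within the NCC range and a few reads above TeO. The other 3 iTeO libraries lay above all 6 natural libraries. The value of ES-rep2 rests on 5 counts, against 608 in ES-rep1.

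ENSGALG00000028037 led the members of ES-rep2. It had 177 CPM there, against 3.99 in ES-rep1, 6.53 in iPS-rep1 and 4.84 in iPS-rep2. TeO had 5.61, 5.69 and 6.95 CPM and NCC had 5.68, 4.42 and 5.78. The gene was therefore at a like level in 9 of the 10 libraries, between 3.99 and 6.95 CPM, and stood apart in 1, where 1733 counts were found.

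ENSGALG00000004246 had the opposite pattern, with 1 low library. It had 42.2 CPM in ES-rep1, 17.4 in iPS-rep1 and 32.0 in iPS-rep2, but 0.716 in ES-rep2, from 7 counts. TeO had 20.2, 21.8 and 8.29 CPM, and NCC had 0.603, 0.531 and 0.722. The other iTeO libraries were at or above the level of natural tectum, and ES-rep2 lay within the range of cortex.

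**Figure D2:**
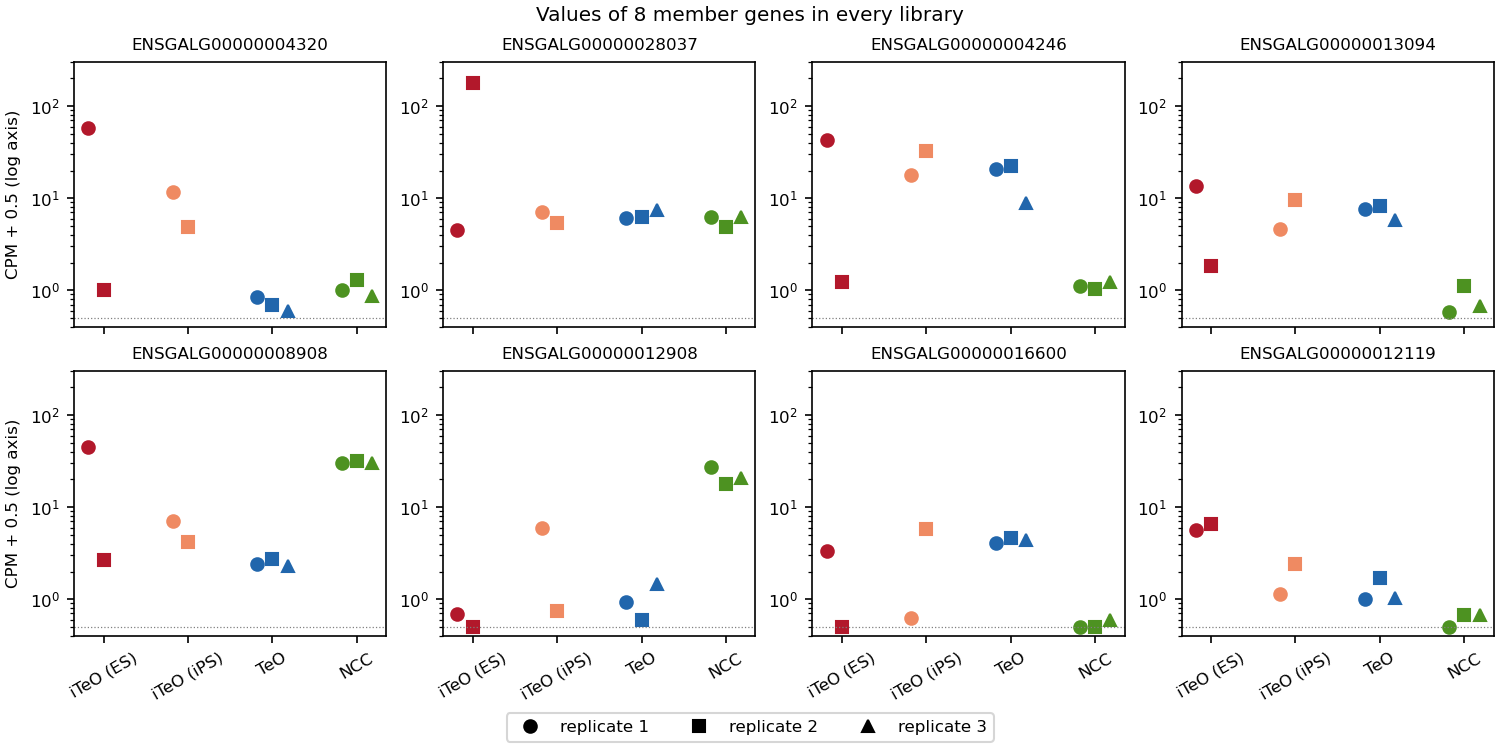
CPM + 0.5 on a log axis for 8 members in every library, with colour for the group and marker shape for the replicate; the dotted line marks 0 CPM. ENSGALG00000028037 has 1 point at 177 CPM and 9 between 3.99 and 6.95 CPM, whereas ENSGALG00000004246 has 1 iTeO point at the level of NCC.

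Over 100 CPM was reached in an iTeO library by 5 members, of which 4 had a single high library and 1 was graded. The most abundant one, ENSGALG00000006453, had 517 CPM in ES-rep1 and 138, 91.0 and 124 in the other iTeO libraries, against 84.7 to 164 in TeO and 118 to 234 in NCC. Besides ENSGALG00000028037, 3 members exceeded 100 CPM in ES-rep2 and in no other iTeO library. ENSGALG00000013568 had 113 CPM there, 2.69 to 4.48 in the other iTeO libraries, 2.16 to 3.03 in TeO and 21.7 to 28.1 in NCC. ENSGALG00000007669 had 173 CPM there, against 7.12 to 12.6 in the other iTeO libraries, 10.2 to 18.2 in TeO and 31.8 to 43.8 in NCC. In both of these, ES-rep2 exceeded both natural tissues, and the other iTeO libraries were within or near the range of TeO. The graded one, ENSGALG00000009730, had 129 CPM in ES-rep2 and 65.9 in ES-rep1, 19.2 in iPS-rep1 and 45.1 in iPS-rep2, with 33.3 to 66.6 in TeO and 10.5 to 23.3 in NCC. At the other end, 17 members stayed under 10 CPM in every iTeO library.

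Summed over the 43 members, CPM was 1262 in ES-rep1, 983 in ES-rep2, 302 in iPS-rep1 and 435 in iPS-rep2, against 406 to 489 in TeO and 496 to 665 in NCC. The 22 members highest in ES-rep1 summed to 1133 CPM there, 222 in ES-rep2, 232 in iPS-rep1 and 334 in iPS-rep2, against 321 to 373 in TeO and 314 to 426 in NCC. Outside ES-rep1, this block was thus lowest in ES-rep2. In CPM without further scaling, iPS-rep2 lay within the range of both natural tissues. The 19 members highest in ES-rep2 summed to 762 CPM there, 127 in ES-rep1, 65.2 in iPS-rep1 and 94.98 in iPS-rep2, against 80.3 to 120 in TeO and 165 to 214 in NCC. Both blocks were formed by the library with the highest value, so that the peak of each sum follows from the grouping. The sums also follow the few abundant members more than the rest. ENSGALG00000006453 alone gave 517 CPM of the first sum in ES-rep1 and 138 in ES-rep2. In the second sum, 4 members gave 177, 173, 129 and 113 CPM in ES-rep2.

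For most members, the 2 iTeO (iPS) libraries were close to each other. Their ratio was under 3 for 40 of the 43 members, with a median of 1.52. Between the 2 iTeO (ES) libraries, 22 members differed by a ratio of 5 or more, 13 higher in replicate 1 and 9 higher in replicate 2, whereas between the 2 iTeO (iPS) libraries it was 2 members. Over all chicken genes at 5 CPM or more in either library, 26 genes differed by this ratio between the iTeO (ES) libraries and 3 between the iTeO (iPS) libraries.

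The 2 members highest in an iTeO (iPS) library were named for being so few. ENSGALG00000012908 had 5.38 CPM in iPS-rep1, 0.236 in iPS-rep2, 0.190 in ES-rep1 and no count in ES-rep2, where 3 counts would be 0.307 CPM. It had 0.431, 0.0918 and 0.980 CPM in TeO and 27.1, 17.3 and 20.1 in NCC, so that the high iTeO library lay between the natural tissues and the other 3 within or near the TeO range. ENSGALG00000016600 had 5.31 CPM in iPS-rep2 and 2.85 in ES-rep1, but 0.128 in iPS-rep1 and no count in ES-rep2. It had 3.54, 4.13 and 3.92 CPM in TeO and no count, no count and 0.0902 CPM in NCC. Here 2 iTeO libraries held the gene near the level of natural tectum and 2 were as low as cortex.

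Values of the natural tissues lay inside the spread of the iTeO libraries for many members. The rule asked for a wide spread in iTeO and a narrow one in each natural tissue, so these counts follow in part from it. They are a description, and the share over all genes was not taken. All 3 TeO values fell within the range of the iTeO libraries for 27 members and all 3 NCC values for 21. The highest iTeO library lay above all 6 natural libraries for 36 members and the lowest lay below all 6 for 18, with both true for 11.

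Fewer genes were uneven in sets of natural libraries than in sets of iTeO libraries. Since unevenness grows with the number of libraries, sets of 3 were compared. Each iTeO set held both kinds of iTeO, while TeO and NCC were 1 group each, so the sets are not alike. Between an iTeO (ES) and an iTeO (iPS) library, 35 to 44 genes at 5 CPM or more differed by a ratio of 5. Between the iTeO (ES) libraries it was 26 genes, and between the iTeO (iPS) libraries 3. The iTeO libraries also held fewer reads. In each set of 3 iTeO libraries, between 47 and 71 genes had a highest value of at least 5 CPM and a ratio of 5 or more, against 28 in TeO and 29 in NCC. When the genes also had to have a ratio under 3 in each of the other tissues, iTeO sets gave 23 to 45 genes, TeO gave 2 and NCC gave 1. This step removes genes that were uneven in several tissues. Of the 26 genes that evenness left out of the members, 25 failed it in TeO and 24 in NCC. In this count TeO and NCC genes had to be even over all 4 iTeO libraries, while iTeO genes had to be even over 3 libraries of each natural tissue. The iTeO counts were lowest in sets with only 1 iTeO (ES) library, 23 without ES-rep2 and 26 without ES-rep1.

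**Figure D3:**
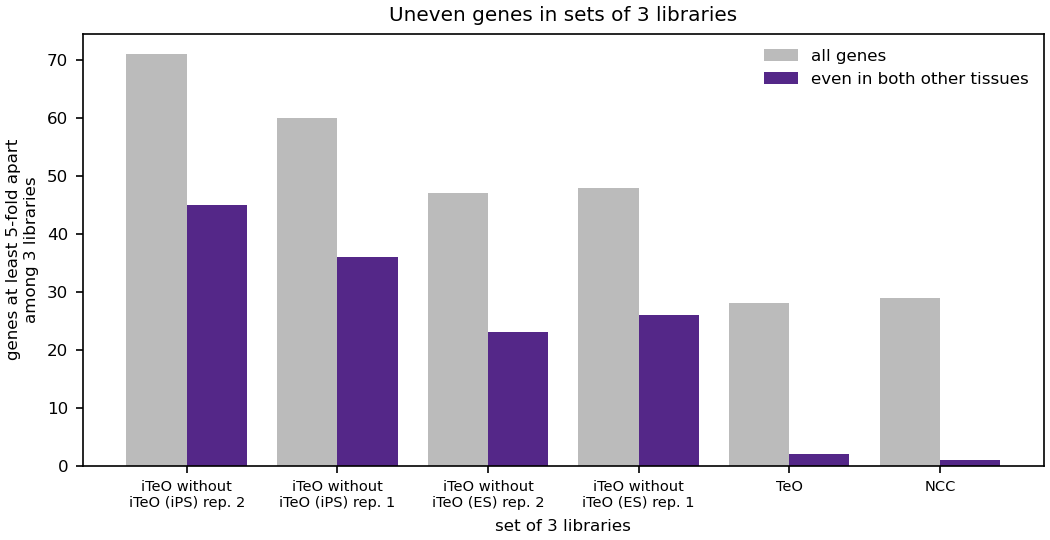
Number of chicken genes at least 5-fold apart (0.5 CPM added) among 3 libraries, for the 4 sets of 3 iTeO libraries and for TeO and NCC. Grey bars count all genes and purple bars those with a ratio under 3 in both other tissues, which number 23 to 45 in iTeO, 2 in TeO and 1 in NCC.

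The rule set no limit on the difference between natural tectum and cortex, but it did use natural values. It asked that members be even within each tissue and that the lowest iTeO value not lie above all natural libraries. The last criterion favours genes that are high in either tissue, so the shares below are not free of the rule. The quasi-likelihood test of edgeR was fitted to all chicken genes in 1 model of all 10 libraries in which the groups were iTeO, TeO and NCC, and calling a gene took a p-value below 0.05 after Benjamini-Hochberg adjustment as well as a log2 fold change beyond 1 in either direction. Of the 43 members, 41 passed the filter on low counts. Of these, 11 were called between TeO and NCC, where 12.8% of all 13999 tested genes were called. The 4 members higher in TeO stood against 6.86% of all genes called in that direction, and the 7 higher in NCC against 5.93%. The median absolute log2 fold change was 1.40 over the members and 0.31 over all tested genes, which were not matched to the members for level or evenness.

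In that model the spread of a member includes the iTeO libraries, in which it was chosen to vary. A fit of the 6 TeO and NCC libraries alone holds no iTeO value. It tested 35 members and called 21, of which 8 had the higher level in TeO and 13 in NCC, against 13.2% of all genes tested there (7.02% higher in TeO and 6.16% higher in NCC). Since even genes are easier to call, the share was also taken over genes that were as even as the members within TeO and NCC and reached 5 CPM in an iTeO library. The last criterion of the rule was not applied to these genes. This share, of which the members are part, was 10.9% in this fit and 10.6% in the fit over 10 libraries. The members left out by the filter of the 6 libraries were low in both natural tissues and are not part of these counts.

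The members called with the largest changes were taken from those with at least 5 CPM in the higher tissue, 2 in each direction. ENSGALG00000004246, described above, had 16.7 ± 7.37 CPM in TeO and 0.618 ± 0.0965 in NCC (SD, n = 3 each), so that its log2 fold change was 4.73 ± 1.40 (standard error) at an adjusted p of 0.0327 in edgeR. ENSGALG00000013094 had 7.07, 7.71 and 5.26 CPM in TeO and 0.0861, 0.619 and 0.180 in NCC, with 4.44 ± 0.98 (standard error) on the log2 scale and an adjusted p of 0.00695 in edgeR. Among the iTeO libraries, the latter gene had 13.2 CPM in ES-rep1, 1.33 in ES-rep2, 4.10 in iPS-rep1 and 8.97 in iPS-rep2. For both genes ES-rep2 was lowest and the other iTeO libraries were near or above the TeO range. ENSGALG00000016600, under the limit of 5 CPM, was also called higher in TeO, with 130 counts over the TeO libraries and 1 over the NCC libraries, a ratio of 131 after scaling to depth whose 95% exact interval, 23.1 to 5218, reflects the error of counting alone.

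In the direction of cortex, ENSGALG00000012908 had 0.501 ± 0.448 CPM in TeO and 21.5 ± 5.04 in NCC (SD, n = 3 each), so that its log2 fold change was -5.41 ± 1.15 (standard error) at an adjusted p of 0.00708 in edgeR. ENSGALG00000008908 had 1.90, 2.20 and 1.78 CPM in TeO and 29.8, 31.2 and 29.4 in NCC, with -3.95 ± 1.19 (standard error) on the log2 scale and an adjusted p of 0.0347 in edgeR. Among the iTeO libraries it had 44.6 CPM in ES-rep1, 2.15 in ES-rep2, 6.66 in iPS-rep1 and 3.66 in iPS-rep2. ES-rep1 was thus above cortex for a gene that was low in natural tectum. ES-rep2 was within the range of TeO, and both iTeO (iPS) libraries lay above TeO and below NCC. ENSGALG00000004246 and ENSGALG00000008908 each lost their call in 6 of 15 alternatives, among them the fits without any single NCC library, and ENSGALG00000016600 in those 3. ENSGALG00000013094 and ENSGALG00000012908 kept theirs in all 15. For ENSGALG00000008908 these 15 leave out DESeq2, which gave it no adjusted p-value. For the other genes they leave out the fit where every library had to reach 10 counts, in which those genes were not tested.

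The tissue in which a member was higher went along in part with the library that led it. All 4 members that were called in the direction of TeO over the 10 libraries were lowest in ES-rep2, and 3 of them were highest in ES-rep1. Of the 7 called higher in NCC, 4 were highest in ES-rep2, 2 in ES-rep1 and 1 in iPS-rep1, and ES-rep2 was lowest for 2 of them. In the fit of TeO and NCC alone, 7 of the 8 members higher in TeO were highest in ES-rep1 and none in ES-rep2, while 8 of the 13 higher in NCC were highest in ES-rep2 and 4 in ES-rep1. The lowest library was less uniform in that fit. Of the 8 members higher in TeO, 5 were lowest in ES-rep2 and 3 in iPS-rep1. ES-rep2 was also lowest for 4 of the 13 higher in NCC. The iTeO values chose these genes, so the counts are a description.

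To place each iTeO library relative to the natural tissues, the mean log2(CPM + 0.5) of TeO was set to 0 and that of NCC to 1. Over the 21 members called in the fit of TeO and NCC alone, the median position was -0.10 in ES-rep1, 0.67 in ES-rep2, 0.19 in iPS-rep1 and -0.07 in iPS-rep2. ES-rep2 lay nearer to NCC than to TeO for 13 of the 21, against 4, 6 and 3 in ES-rep1, iPS-rep1 and iPS-rep2. Many of these values lay beyond the mean of NCC and not between the tissues, namely 8 of the 13 in ES-rep2 and all 4 in ES-rep1, with 2 each in the iTeO (iPS) libraries. Among members higher in NCC, 6 of the 7 counted in ES-rep2 and the 4 in ES-rep1 were above the mean of cortex. Not every one of those in ES-rep1 lay above every NCC library. Over the 1195 other called genes of like evenness, the medians were 0.15, 0.17, 0.13 and 0.10 in these 4 libraries in the same order, and 19.1%, 20.5%, 17.2% and 14.6% of those genes lay nearer to NCC. The members were chosen for a wide spread among these libraries and were taken out of the other genes, so the wider range of their positions is set by the rule. For the 8 members higher in TeO the medians of ES-rep1 and ES-rep2 were -0.33 and 0.72, with 7 of the 8 beyond TeO in the first and 6 of the 8 nearer to NCC in the second. For the 13 members higher in NCC they were 0.23 and 0.67.

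**Figure D4:**
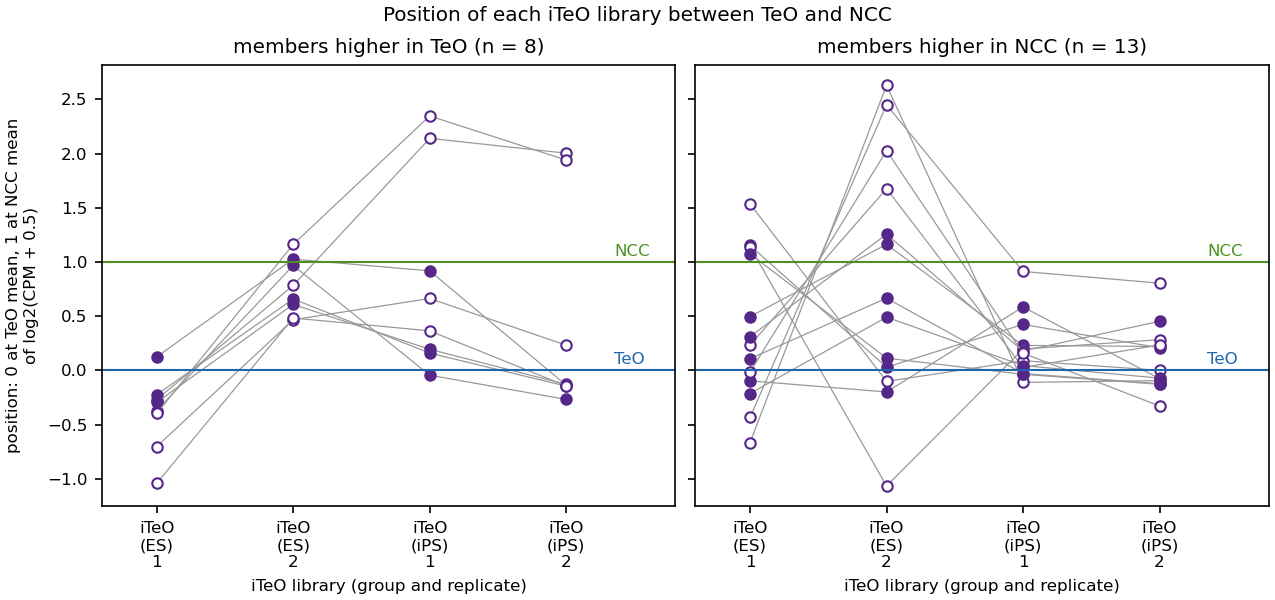
Position of each iTeO library between TeO (mean set to 0) and NCC (mean set to 1) on the scale of log2(CPM + 0.5) for the 8 members higher in TeO and the 13 higher in NCC in the fit of the TeO and NCC libraries alone; lines join the values of 1 gene, and filled points are the members also called over all 10 libraries. For members higher in TeO, ES-rep1 lies around or below 0 and ES-rep2 has a median of 0.72.

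The comparisons of iTeO with natural tissue rest on values the rule used and on the same iTeO libraries, and their counts are given for completeness. Between iTeO and TeO, 2 of the 41 tested members were called, both higher in iTeO, where 6.79% of all genes were called (4.04% higher in iTeO and 2.75% higher in TeO). They were ENSGALG00000004320, at 6.21 ± 1.93 (standard error) on the log2 scale and an adjusted p of 0.0406 in edgeR, and ENSGALG00000012119, at 2.02 ± 0.69 and an adjusted p of 0.0403 in the same fit. ENSGALG00000012119 had 5.13 CPM in ES-rep1, 6.13 in ES-rep2, 0.640 in iPS-rep1 and 1.89 in iPS-rep2. It had 0.518, 1.19 and 0.535 in TeO and no count, 0.177 and 0.180 CPM in NCC. Both iTeO (ES) libraries lay furthest above the natural tissues. The value of iPS-rep2 was also above every natural library, while that of iPS-rep1 was within the TeO range. The first gene lost its call in 8 of 11 alternatives and the second in 9 of 14. The first was not tested in the fits without ES-rep1, iPS-rep1 or iPS-rep2. Neither gene was tested where every library had to reach 10 counts. Between iTeO and NCC, 10 members were called, 7 higher in iTeO and 3 higher in NCC, where 16.9% of all genes were called (9.87% higher in iTeO and 7.05% higher in NCC).

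A contrast of both kinds of iTeO uses on either side the values that chose the members for their spread, so larger differences than over all genes follow from the rule and nothing is read from its counts. In a fit with 4 groups, iTeO (ES) against iTeO (iPS), edgeR called none of the 41 tested members, where 0.0143% of all genes were called, and the median log2 fold change of the members was 2.08. Before adjustment, 25 members had a p-value under 0.05, and DESeq2 called 8 of 41, where it called 0.286% of all genes. Without ES-rep1 the count was 18 of 38 tested members (0.46% of all genes), and without ES-rep2 it was 13 of 39 (0.69%). Each kind of iTeO has 2 libraries, and where 1 was left out the lone library was assumed to vary like the other groups.

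Reads on human genes, which the rule did not use, made up 0.371% of all counts in ES-rep1 (95% Wilson interval 0.367% to 0.375%) and 0.299% (0.295% to 0.302%) in iPS-rep1. They were 0.129% (0.127% to 0.131%) in ES-rep2 and 0.124% (0.122% to 0.126%) in iPS-rep2, against 0.123% to 0.137% over the natural libraries. These intervals reflect the error of counting alone. Of the libraries with the larger shares, ES-rep1 led 22 members and iPS-rep1 led 1, and of the others ES-rep2 led 19 and iPS-rep2 led 1. The part of the human reads in the members' values was not tested. For the 22 members of ES-rep1, the next highest library was iPS-rep2 for 10, iPS-rep1 for 6 and ES-rep2 for 6. Over all 43 members, both first iTeO replicates, those with the larger human shares, lay above both second replicates for 6. The share of all genes in this order was not taken and the members were chosen on these values, so nothing is read from that count. The chicken gene with most counts in a library held 15.2% of all counts on chicken genes in ES-rep1 and in iPS-rep1, 13.4% in ES-rep2 and 13.3% in iPS-rep2, and its part in the members' values was not tested.

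The limits of the rule cut through a continuous range. The members nearest to the ratio of 5 had 5.03, and the nearest gene left out had 4.93, with 6 members and 5 other genes within 10% of that limit. For the highest iTeO value the nearest member had 5.31 CPM and the nearest gene left out 4.84 CPM. The evenness within the natural tissues had a gap, with 2.82 as the largest ratio of a member and 4.35 as the smallest among genes left out for it. For the last criterion, the lowest iTeO value over the highest natural value is given here with 0.5 CPM added to both. It was 0.997 in the nearest member and 1.02 in the nearest gene left out. In that member the lowest iTeO value rested on 2 counts and the highest natural value on 3.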

How the data were processed

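RNA of 10 samples was read from 1 end. Trimmomatic was used by the authors for trimming, STAR 2.7.1a for alignment to the human GRCh38 and chicken galGal5 genomes joined in a single index, and featureCounts for counting reads with a unique position. The deposited values are these raw counts per gene, not normalized. Whether strand was used in counting is not given in the sources used here, so the counts of genes that overlap others are less certain. Groups and replicate numbers were taken from the sample titles.

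The members and the tests were chosen with earlier results of these data known. CPM used the sum of chicken counts and no further factor. The TMM factors of edgeR, used in the fits and in 1 alternative of the rule, were between 0.931 and 1.10. They were 1.07 to 1.10 in the iTeO libraries and 0.931 to 0.978 in the natural libraries. CPM without them therefore stands higher in iTeO relative to TeO and NCC than the scale of the fits. Fits used edgeR 4.0.16 in R 4.3.3 (filterByExpr by tissue, robust quasi-likelihood fit), with standard errors obtained by dividing a log2 fold change by the root of its F statistic, and were checked on simulated counts. Alternatives were DESeq2 1.42.0 without shrinkage, its size factors, other filters on low counts, the replicate number as a block, the TeO and NCC libraries alone, other limits in the rule and each library left out in turn. The share over genes of like evenness was added after the data were seen.

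Genes were to be named by the largest ratio of highest to lowest, 2 with a single high and 2 with a single low iTeO library, of which 1 gene met both. The other identifiers printed were chosen after their values were seen. The marker lists set out for named genes could not be used without gene names.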

Additional observations from a re-analysis of the deposited data

Results flagged for a closer look

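For 8 of the 14 members printed by identifier, 1 iTeO library stood far from the other 3 by Dixon's criterion. In groups of 4 not chosen by their values, chance meets it in about 1 of 20. That rate does not apply here, since the same iTeO values chose the members, and over all 43 members 22 met the criterion. The gaps are given as a description. ENSGALG00000028037 had 177 CPM in ES-rep2, with a gap to the next library of 0.985 of the whole range. In the same library, the gap was 0.984 of the range for ENSGALG00000013568 at 113 CPM, 0.967 for ENSGALG00000007669 at 173 CPM, 0.875 for ENSGALG00000032422 at 7.97 CPM and 0.853 for ENSGALG00000010036 at 22.6 CPM. ENSGALG00000012908 had 5.38 CPM in iPS-rep1, with a gap of 0.956 of the range. ENSGALG00000008908 had 44.6 CPM in ES-rep1, with a gap of 0.894 of the range, and ENSGALG00000006453 had 517 CPM there, with a gap of 0.890.

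Reads were also found on human genes that had none in any of the 6 natural libraries, 14466 counts in ES-rep1 and 6990 in iPS-rep1. When a natural library was compared with the other 5 in the same way, at most 576 such counts were found. These reads lay outside the genes compared above.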

How the results depend on the processing

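The rule gave 43 members, and 26 with a highest value of 10 CPM, 122 with a ratio of 3 and 23 with a ratio of 8 among the iTeO libraries. Without single iTeO libraries it gave between 17 (without ES-rep2) and 40 members, 25 of them without ES-rep1, and TMM scaling, an offset of 1 CPM and a stricter evenness changed the number by less than 1.5 times. Of the members, 11 were called between TeO and NCC, 21 in the fit of these 2 tissues alone and 5 when every library had to reach 10 counts, where only 19 members were tested. Without single libraries this count was between 7 and 16, with 7 without TeO replicate 2, NCC replicate 1 or NCC replicate 3. Between iTeO and TeO, 2 members were called, 5 by DESeq2, and 0 without a filter, under that limit of 10 counts or with the replicate number as a block. Under that limit, 577 of all genes were called there in place of 950. Without single libraries, 0 to 5 members were called. Between iTeO and NCC, 10 members were called, 17 by DESeq2 and 5 under that limit, with 6 to 16 without single libraries. All genes called there fell from 2369 to 1561 under the limit. Between iTeO (ES) and iTeO (iPS), 0 members were called, 8 by DESeq2 and 0 to 18 without single libraries. All genes called numbered 2, 40 with DESeq2, 1 with the replicate block and 0 to 96 without single libraries. The other changes left these counts within 1.5 times, and beyond the fewer genes and samples of some fits the cause was not tested.

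Deviations of same-numbered TeO and NCC libraries correlated at 0.32, -0.24 and 0.33, so that the replicate numbers were not taken to pair the samples. Differently numbered libraries correlated at 0.31 for TeO replicate 1 with NCC replicate 2 and 0.33 for TeO replicate 2 with NCC replicate 3. For TeO replicate 1 with NCC replicate 3 it was -0.51. Whether TeO and NCC libraries share embryos or another factor under other numbers was not tested. With the replicate block, 10 members were called for TeO against NCC and 7 for iTeO against NCC. Counted only on human genes without a count in TeO or NCC, the human share was 0.137% in ES-rep1, 0.00387% in ES-rep2, 0.0892% in iPS-rep1 and 0.00498% in iPS-rep2. Low counts limit the lowest values of members, which rest on a median of 10 reads.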

Other observations

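The table lists genes in an order but gives no coordinates. In that order 1 pair of members stood next to each other, ENSGALG00000032422 and ENSGALG00000010036, named after their values were seen, and whether they neighbour each other in the genome was not looked up here. Both were highest in ES-rep2. ENSGALG00000032422 had 7.97 CPM there and 1.52, 1.15 and 2.01 in ES-rep1, iPS-rep1 and iPS-rep2, and ENSGALG00000010036 had 22.6 CPM there and 6.65, 3.97 and 3.89 in those 3. ENSGALG00000032422 had 0.518 to 1.01 CPM in TeO and 3.79 to 6.20 in NCC, and ENSGALG00000010036 had 2.02 to 3.21 in TeO and 15.8 to 17.4 in NCC. For both genes ES-rep2 lay above all natural libraries. If strand was not used in counting, the counts of overlapping genes are less certain.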
